A study of Mus musculus with 30 samples.

Results

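The naive pluripotency transcription factors are 8 genes that maintain or mark the undifferentiated state of mouse embryonic stem (ES) cells: Zfp42, Esrrb, Klf2, Klf4, Klf5, Tfcp2l1, Nr0b1 and Tbx3. They were chosen by name, with earlier results of these data known, and each was read by 1 probe set that names that gene alone. They make up 8 of the 19938 genes measured on Affymetrix Mouse Gene 1.0 ST arrays. All 8 were measured on all 30 arrays, and no filter on low values was applied to the levels or to the tests.

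Naive pluripotency is the state of the cells of the early mouse epiblast before implantation, and mouse ES cells keep it in culture under the cytokine LIF, which acts through STAT3. The factors named here are expressed with a network around Pou5f1, Nanog and Sox2, in which many of them sustain each other's transcription. As cells leave the state toward a germ layer, the network is shut down, and some of its members are used again later in other tissues. Zfp42, also called Rex1, is a zinc finger protein widely used as a reporter of the state, and Esrrb is an orphan nuclear receptor that binds at many genes of the network. Nr0b1, also called Dax1, is an orphan nuclear receptor without the usual DNA-binding domain that acts as a cofactor. Tfcp2l1 is a CP2 family factor and a target of LIF and STAT3. Klf2, Klf4 and Klf5 are zinc finger factors of the Krüppel-like family with partly shared functions in ES cells, and Tbx3 is a T-box factor that also acts in limb, heart and liver development.

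The study set endoderm made in culture beside endoderm of the embryo, with 3 biological replicates per group. On 18 arrays labelled without amplification were the induced pluripotent stem (iPS) cell clones ST8 and ST5 and ES cells, each at day 5 and at day 0 of differentiation. On 12 arrays labelled after amplification were foregut endoderm and an ENDM1-negative comparison population of E8.25 embryos, and ES cells at day 5 and at day 0. All cultured cells had the background C57BL/6x129SvJae and all embryos were Swiss webster. Each iPS group stands for 1 clone, and how the clones were made is not given in the sources used here. Cells at day 5 were sorted for Kit and dim Sox2, while cells at day 0 were sorted for bright Sox2. Foregut cells were sorted for ENDM1, Epcam and low side scatter, and their comparison cells for Epcam without ENDM1. RNA came from the miRNeasy kit for cultured cells and from the RNeasy Micro kit for embryos.

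Values are log2 levels after RMA, a method that corrects, normalizes and summarises the probes of a probe set. Array medians lay between 5.50 and 5.57 without amplification and between 5.69 and 5.74 with it, and levels were never compared across the labellings. The number of arrays limits the precision. All differences are on the log2 scale, each with the standard error (SE) of the limma fit, and a gene was called where its Benjamini-Hochberg adjusted p over all 19938 genes was under 0.05. Of 12 definitive endoderm markers, 11 were higher at day 5 than at day 0 in ST8, 10 in ST5 and 11 in unamplified ES cells. Of the same 12, 1 was lower in ST8, 1 in ST5 and 0 in ES cells. ST8 day 5 replicate 2 and ES day 5 replicate 1 stood apart from the other arrays of their groups, with root mean square deviations from the group mean of 0.26 and 0.211 over all genes. The other unamplified arrays had deviations of 0.086 to 0.157. On amplified arrays, ES day 5 replicate 1 had the highest deviation, 0.192, against 0.114 to 0.142 for the others.

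RefSeq promoter entries were at hand for 6 of the 8 genes, all but Klf5 and Tbx3. The windows shown hold the 250 bases before the RefSeq start, on the gene's own strand, build GRCm38.p6. They belong to the 4 genes whose levels differed most between lines at day 0 or day 5, picked with those values known, and capitals mark the letters of a motif found. Motifs searched on both strands were the octamer ATTTGCAT, the nuclear receptor element AAGGTCA, the GC box GGGCGG, the CACC box CCCACCC, the STAT site TTCNNNGAA and the TATA box TATAAA. The Zfp42 window, chr8:43307010-43307259 on the minus strand, holds an octamer 186 bases before the start, 2 GC boxes and 2 CACC boxes.
Zfp42: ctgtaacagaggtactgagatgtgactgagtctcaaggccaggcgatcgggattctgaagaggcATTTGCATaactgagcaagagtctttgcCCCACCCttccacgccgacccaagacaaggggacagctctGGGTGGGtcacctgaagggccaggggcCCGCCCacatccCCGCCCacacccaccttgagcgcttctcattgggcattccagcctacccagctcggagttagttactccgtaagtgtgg
The Klf4 window, chr4:55532476-55532725 on the minus strand, holds 4 GC boxes, 2 of which overlap by 1 base.
Klf4: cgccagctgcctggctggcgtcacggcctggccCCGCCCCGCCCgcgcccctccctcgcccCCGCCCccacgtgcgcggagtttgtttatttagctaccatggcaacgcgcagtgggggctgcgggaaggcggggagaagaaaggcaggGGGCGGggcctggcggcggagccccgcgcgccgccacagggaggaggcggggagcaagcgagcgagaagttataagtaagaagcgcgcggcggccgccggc
The Tfcp2l1 window, chr1:118627695-118627944 on the plus strand, holds a TATA box 28 bases before the start and none of the other motifs.
Tfcp2l1: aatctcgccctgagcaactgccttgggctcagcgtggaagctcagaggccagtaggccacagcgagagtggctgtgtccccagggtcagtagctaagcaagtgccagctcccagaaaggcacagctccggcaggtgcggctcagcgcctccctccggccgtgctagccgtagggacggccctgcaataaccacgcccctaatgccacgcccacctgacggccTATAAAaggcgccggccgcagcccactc
The Nr0b1 window, chrX:86191525-86191774 on the plus strand, likewise holds only a TATA box, 32 bases before the start.
Nr0b1: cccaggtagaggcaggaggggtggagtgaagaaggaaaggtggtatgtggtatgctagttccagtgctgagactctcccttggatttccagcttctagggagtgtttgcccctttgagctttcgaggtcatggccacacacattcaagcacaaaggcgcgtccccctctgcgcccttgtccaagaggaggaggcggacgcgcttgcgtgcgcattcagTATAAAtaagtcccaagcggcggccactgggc
Among 32851 RefSeq windows of this length, 1.6% hold the octamer, 4.08% the nuclear receptor element, 32.7% the GC box, 15.8% the CACC box, 7.02% the STAT site and 12.4% the TATA box. Of the remaining windows, that of Klf2 holds 2 GC boxes and a CACC box, and Esrrb has a pair of windows with a CACC box each, 1 of them with a STAT site. These matches describe the letters present and were not tested as binding sites.

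All 8 factors were lower at day 5 than at day 0 in every line. In ES cells the 8 falls stand against 19.7% of all genes called lower, in ST5 the 8 falls against 24.8%, and in ST8 the 8 falls against 19.5%. The median difference of the 8 genes was -2.93 in ST8, -2.33 in ST5 and -3.02 in ES cells, against -0.01, -0.04 and 0.02 over all genes. Because each day had its own gate, an effect of differentiation and one of the sort cannot be told apart here. In such bulk samples, fewer cells that express a gene and less RNA per cell cannot be told apart either. The sizes ranged widely among members, with Esrrb at one end and Tbx3 at the other in each line.

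**Figure D1:**
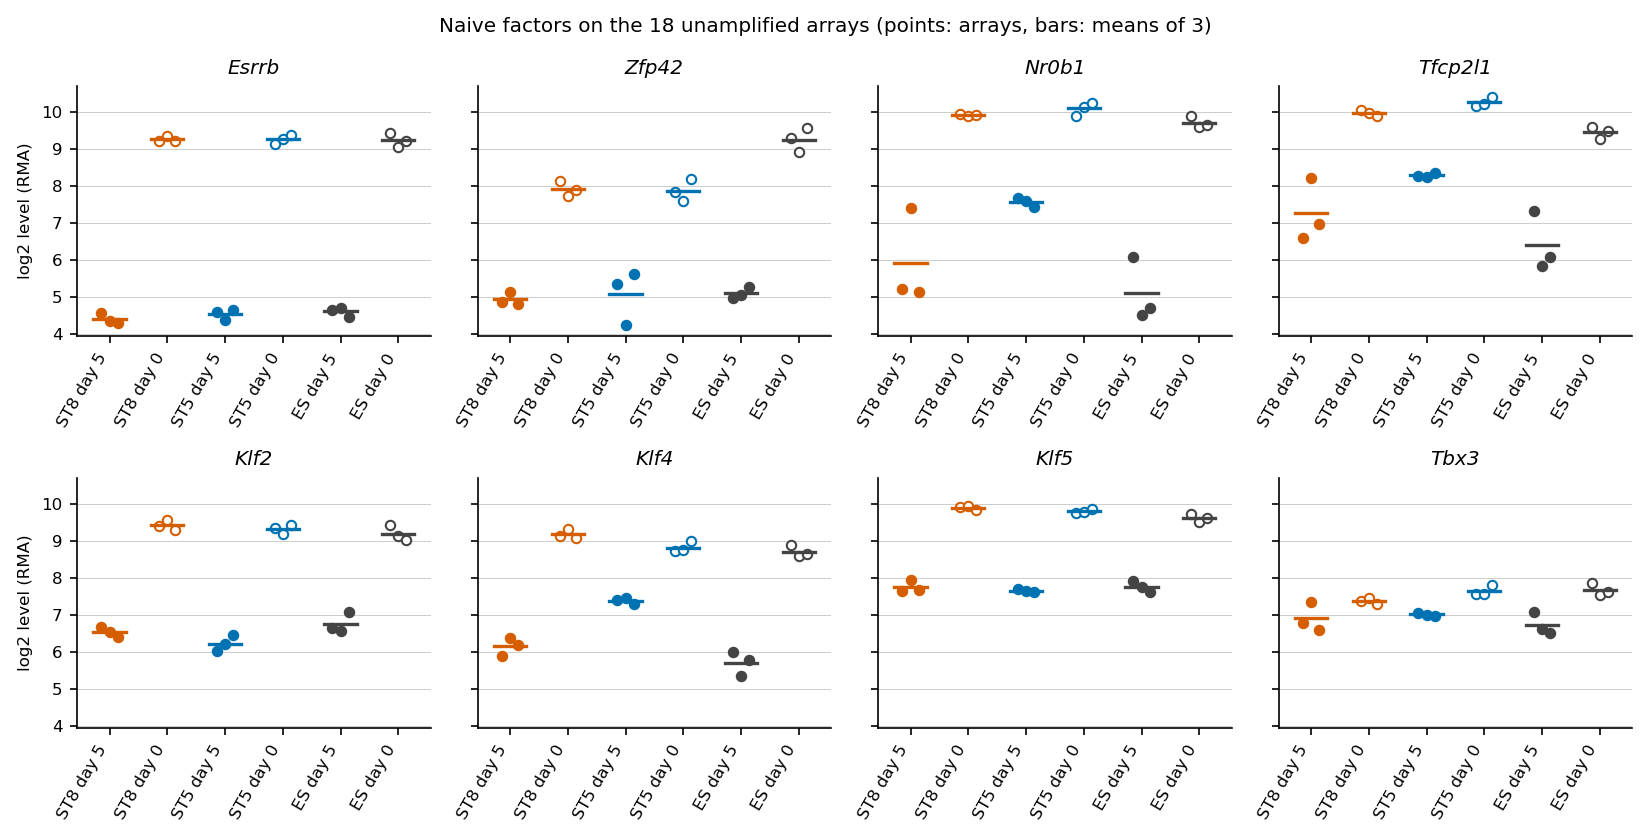
Log2 level (RMA) of each factor on the 18 unamplified arrays, with a point per array, filled at day 5 and open at day 0, and a bar at the mean of 3 arrays. Every factor is lower at day 5 than at day 0 in the 3 lines, and Tbx3 in ST8 is the one case in which the arrays of the days overlap.

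Esrrb had the largest fall of the 8 in each line, in ES cells by less than the SE of the next, Nr0b1. Its level was 4.58, 4.36 and 4.29 in ST8 at day 5, against 9.22, 9.35 and 9.22 at day 0. In ST5 it was 4.59, 4.38 and 4.66 at day 5, against 9.13, 9.27 and 9.39 at day 0. ES cells gave 4.66, 4.71 and 4.47 at day 5, against 9.43, 9.07 and 9.21 at day 0. The 9 day 5 arrays lay together far below the 9 day 0 arrays, with no overlap and with the lines intermixed on each day. The difference was -4.85 in ST8 (SE 0.11, adjusted p = 1.72e-14), -4.72 in ST5 (SE 0.11, adjusted p = 2.45e-14) and -4.62 in ES cells (SE 0.11, adjusted p = 4.16e-14). This is a 28.9-fold, a 26.4-fold and a 24.7-fold lower level.

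Zfp42, the reporter of the state, fell in every line to overlapping levels. It stood at 4.88, 5.14 and 4.81 in ST8 at day 5, against 8.14, 7.73 and 7.89 at day 0. The ST5 arrays read 5.36, 4.25 and 5.62 at day 5, against 7.85, 7.59 and 8.20 at day 0. For ES cells the levels were 4.97, 5.06 and 5.28 at day 5, against 9.30, 8.92 and 9.56 at day 0. The days lay apart in each line, and ST5 replicate 2 was the lowest day 5 array. The difference was -2.98 in ST8 (interval -3.54 to -2.41) and -2.81 in ST5 (interval -3.37 to -2.24). In ES cells Zfp42 fell by 4.16 (SE 0.27, adjusted p = 4.54e-09), which is a 17.8-fold lower level.

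Nr0b1, the nuclear receptor cofactor, had tight levels at day 0 and scattered ones at day 5. Its levels were 5.21, 7.42 and 5.13 in ST8 at day 5, against 9.96, 9.91 and 9.92 at day 0. They were 7.68, 7.59 and 7.45 in ST5 at day 5, against 9.91, 10.15 and 10.24 at day 0. In ES cells they were 6.09, 4.53 and 4.70 at day 5, against 9.89, 9.59 and 9.64 at day 0. The days did not overlap in any line, but at day 5 all ST5 arrays and ST8 replicate 2 were more than 1 log2 unit above the remaining arrays. The Nr0b1 difference was -4.01 in ST8 (SE 0.46, adjusted p = 2.82e-06), -2.52 in ST5 (SE 0.46, adjusted p = 0.000202) and -4.60 in ES cells (SE 0.46, adjusted p = 6.92e-07).

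Tfcp2l1, the LIF and STAT3 target, showed the same arrays as high at day 5. It measured 6.60, 8.22 and 6.98 in ST8 at day 5, against 10.06, 9.98 and 9.90 at day 0. ST5 had 8.28, 8.3 and 8.36 at day 5, against 10.17, 10.23 and 10.40 at day 0. ES cells had 7.34, 5.85 and 6.08 at day 5, against 9.61, 9.28 and 9.50 at day 0. The days did not overlap in any line, and ST8 replicate 2 lay within 0.2 log2 units of the ST5 arrays. The Tfcp2l1 difference was -2.72 in ST8, -1.97 in ST5 and -3.04 in ES cells, with SE 0.35 each and adjusted p = 8.54e-06, 0.000144 and 2.97e-06 in limma.

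The Krüppel-like factors fell by unequal amounts. Klf2, the family member also known from blood vessel endothelium, had levels of 6.66, 6.53 and 6.41 in ST8 at day 5, against 9.39, 9.57 and 9.30 at day 0. In ST5 the Klf2 levels were 6.01, 6.20 and 6.44 at day 5, against 9.34, 9.17 and 9.42 at day 0. In ES cells they were 6.63, 6.55 and 7.07 at day 5, against 9.42, 9.13 and 9.01 at day 0. All day 5 arrays lay well below all day 0 arrays, and ES replicate 3 was the highest at day 5. The Klf2 difference was -2.88 in ST8, -3.09 in ST5 and -2.44 in ES cells, with SE 0.14 each and adjusted p = 1.86e-10, 7.29e-11 and 1.53e-09 in limma.

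Klf4, a LIF target and one of the factors used for reprogramming, set ST5 apart from ST8 and ES cells at day 5. Its levels in ST8 were 5.88, 6.36 and 6.19 at day 5, against 9.13, 9.32 and 9.06 at day 0. In ST5 they were 7.40, 7.46 and 7.28 at day 5, against 8.71, 8.74 and 8.99 at day 0. In ES cells Klf4 read 5.99, 5.34 and 5.78 at day 5, against 8.89, 8.59 and 8.64 at day 0. The 3 ST5 arrays at day 5 lay above every other day 5 array and below every day 0 array. The Klf4 difference was -3.03 in ST8 (SE 0.15, adjusted p = 1.86e-10), -1.44 in ST5 (SE 0.15, adjusted p = 6.54e-07) and -3.01 in ES cells (SE 0.15, adjusted p = 2.36e-10). The level at day 5 was thus 8.15-fold, 2.71-fold and 8.03-fold lower.

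Klf5, which also acts in the epithelium of gut and other organs, had the smallest SE of the 8 in this fit. In ST8 it was 7.65, 7.95 and 7.68 at day 5, against 9.90, 9.95 and 9.84 at day 0. In ST5 it was 7.70, 7.63 and 7.62 at day 5, against 9.74, 9.77 and 9.86 at day 0. In ES cells it was 7.90, 7.75 and 7.60 at day 5, against 9.72, 9.51 and 9.60 at day 0. The lines overlapped at day 5, and the days were far apart in each line. The Klf5 difference was -2.14 in ST8, -2.14 in ST5 and -1.86 in ES cells, with SE 0.09 and an adjusted p of at most 1.3e-10 each.

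Tbx3, the T-box factor, changed least. It measured 6.77, 7.35 and 6.59 in ST8 at day 5, against 7.36, 7.46 and 7.28 at day 0. ST5 arrays gave 7.05, 7.0 and 6.97 at day 5, against 7.56, 7.55 and 7.79 at day 0. ES arrays gave 7.08, 6.61 and 6.51 at day 5, against 7.86, 7.53 and 7.60 at day 0. In ST5 and ES cells the days did not overlap, while in ST8 replicate 2 at day 5 lay within the day 0 range. The Tbx3 difference was -0.46 in ST8 (SE 0.17, adjusted p = 0.0359), -0.63 in ST5 (SE 0.17, adjusted p = 0.00477) and -0.93 in ES cells (SE 0.17, adjusted p = 0.000266). The ST8 call was lost under 7 of 16 alternatives, among them the loss of day 5 replicate 1 (adjusted p = 0.117), of day 5 replicate 3 (0.184) and of day 0 replicates 1, 2 or 3 (0.0769, 0.108 and 0.0505).

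**Figure D2:**
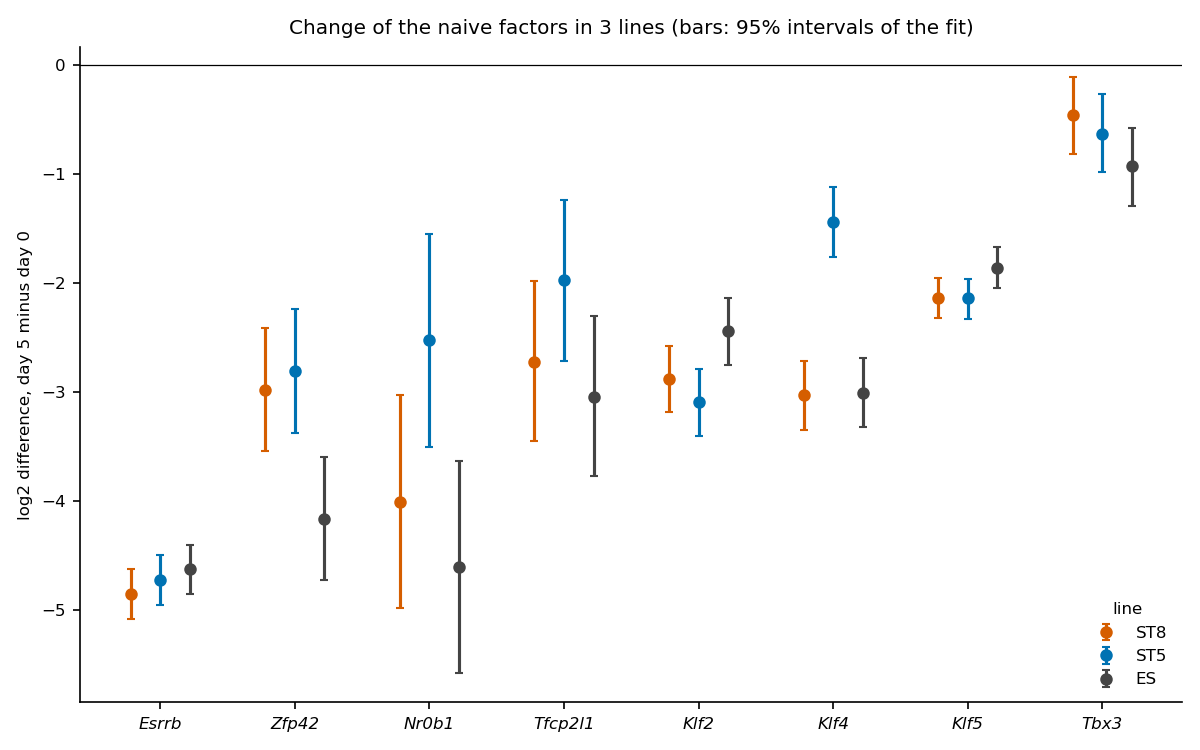
Log2 difference, day 5 minus day 0, of each factor in ST8, ST5 and ES cells, with 95% intervals from limma. Every interval lies below 0, from Esrrb at -4.85, -4.72 and -4.62 to Tbx3 at -0.46, -0.63 and -0.93, and the Klf4 interval of ST5 lies apart from those of ST8 and ES cells.

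Markers of fibroblasts, a common feeder layer of such cultures, moved with the falls. Of 12 fibroblast markers, 11 were lower at day 5 in ST8, 12 in ST5 and 12 in ES cells. Their summed log2 level ranged over 59.7 to 62.4 in ST8 at day 5 and 86.8 to 89.9 at day 0. It ranged over 58.8 to 60.2 in ST5 at day 5 and 87.1 to 89.4 at day 0, and over 60.4 to 64.8 in ES cells at day 5 and 84.5 to 88.2 at day 0. Lox, a collagen crosslinking enzyme, averaged 3.88 in ES cells at day 5 and 8.19 at day 0 (SD 0.27 and 0.28, n = 3 each). The days do not overlap in the sum, and the part of such cells in the falls was not tested.

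Other genes of the naive state moved with the factors, while neighbouring gene groups were mixed. Beside the list counts that follow, 19.5% of all genes were called lower in ST8, 24.8% in ST5 and 19.7% in ES cells. The shares of all genes called higher are not given here. Of 11 further naive-state genes measured, 11 were lower at day 5 in ST8, 10 in ST5 and 11 in ES cells, with medians of -3.21, -3.29 and -2.92. Dppa5a, an RNA-binding protein of ES cells, and Fbxo15, an F-box protein, had the largest falls of that group in ES cells, at -6.34 and -5.33. Of 9 general pluripotency genes, 6 were lower and 1 higher in ST8, 6 and 1 in ST5, and 5 and 2 in ES cells, and Sox2 among them was used in the sort. Gdf3, a TGF-beta family ligand, fell by 4.11 in ES cells (SE 0.08).

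The LIF and STAT3 pathway acts upstream of Tfcp2l1 and Klf4. Of its 11 genes, 6 were lower and 3 higher at day 5 in ST8, 7 and 3 in ST5, and 7 and 3 in ES cells. Socs3, the feedback inhibitor induced by STAT3, changed by -2.05 ± 0.14 (SE) and Il6st, the gp130 chain of the LIF receptor, by -1.64 ± 0.07 in ES cells. The kinases Jak1 and Jak2 rose by 0.66 ± 0.08 and 0.51 ± 0.12.

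Genes of the formative and primed epiblast, the states that follow the naive state, were mixed. Of 11, 3 were higher and 1 lower in ST8, 3 and 3 in ST5, and 4 and 1 in ES cells. Their medians were 0.43, -0.36 and 0.17, against -0.01, -0.04 and 0.02 over all genes. Otx2, a homeobox factor of the formative state, rose by 2.53 ± 0.14 (SE) in ES cells, and Cdh2, N-cadherin, by 2.27 ± 0.27, while Etv4, an ETS factor, fell by 0.95 (SE 0.15). Of 7 genes that drive the exit from the naive state, 1 was higher and 1 lower in ST8, 1 and 2 in ST5, and 1 and 2 in ES cells. In lists this short, the counts lower cannot be told apart from the shares of all genes called lower. Flcn, folliculin, rose by 0.45 ± 0.09 in ES cells, and Rbpj, the Notch effector, and Zfp706, a zinc finger protein, changed by -0.64 ± 0.08 and -0.52 ± 0.08.

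Among 13 other Klf family genes, 5 were lower and 2 higher in ST8, 7 and 1 in ST5, and 6 and 1 in ES cells. Their medians were -0.21, -0.59 and 0.00, against differences of -3.09 to -1.44 for Klf2, Klf4 and Klf5 in the 3 lines. Klf8 and Klf9 changed by -1.56 ± 0.11 and -1.47 ± 0.21 (SE) in ES cells, and Klf7 rose by 0.34 ± 0.10. Of 9 relatives of the remaining factors, 1 was lower and 1 higher in ST8, 1 and 2 in ST5, and 1 and 2 in ES cells. Here too the counts lower cannot be told apart from the shares of all genes. The nuclear receptor Esrrg and the CP2 factor Tfcp2 rose by 0.48 ± 0.17 and 0.20 ± 0.07, and the CP2 factor Ubp1 fell by 0.36 (SE 0.07), in ES cells.

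**Figure D3:**
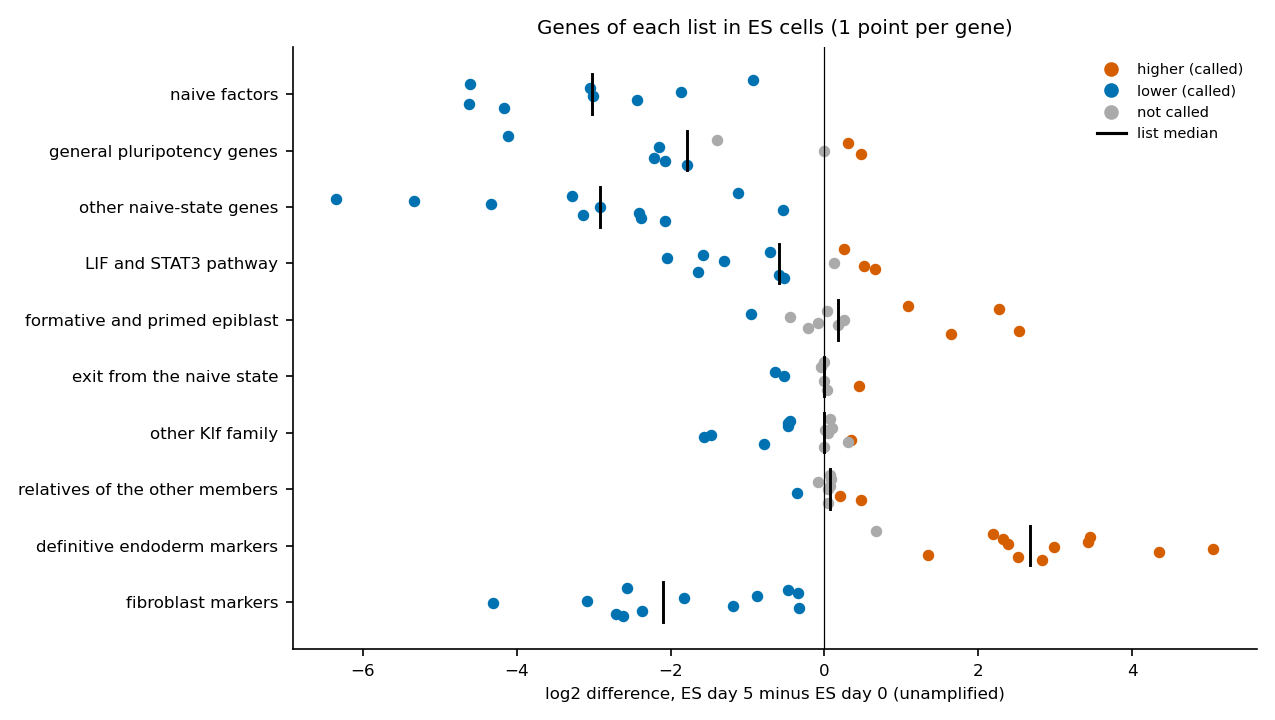
Log2 difference, ES cells at day 5 minus day 0 without amplification, for each measured gene of 10 gene lists, coloured by the limma call, with a line at the list's median. The 8 naive factors (median -3.02) and the 11 further naive-state genes (median -2.92) are all lower, the 12 fibroblast markers too, and 11 of 12 definitive endoderm markers are higher.

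At day 0 the clones and ES cells differed in 1 of the 8 factors. Zfp42 differed by -1.34 in ST8 against ES cells (interval -1.91 to -0.77, adjusted p = 0.00943), and by -1.38 in ST5 against ES cells (interval -1.95 to -0.81, adjusted p = 0.0079). Every array of either clone lay below every ES array. Over all genes, 1.68% were called lower in ST8 and 1.84% lower in ST5, and both comparisons share the ES arrays. Without ES day 0 replicate 3, the highest of the group, neither call held (adjusted p = 0.0541 for ST8 and 0.0518 for ST5).

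Esrrb differed from ES cells by 0.02 in ST8 and 0.03 in ST5 at day 0, with intervals of -0.20 to 0.25 for both. Klf2 differed by 0.23 (interval -0.07 to 0.53) in ST8 and 0.12 (interval -0.18 to 0.43) in ST5. The remaining members not called had differences of -0.30 to 0.52 in ST8 and of -0.03 to 0.80 in ST5. Tfcp2l1 was at the upper end of both, at 0.52 ± 0.35 in ST8 and 0.80 ± 0.35 (SE) in ST5, with every clone array above every ES array. The spread in these fits is shared with the day 5 groups. Where the fit held only the 2 groups compared, Tfcp2l1 was called higher in ST8 (adjusted p = 0.00988) and in ST5 (0.00178), and Klf4 and Klf5 were called higher in ST8 (0.0242 and 0.0382).

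Between the clones at day 0, limma called 0 of the 8 factors, against 0.0652% of all genes, and 1, Klf4, had an unadjusted p under 0.05. Klf4 differed by 0.35, ST8 minus ST5, with an interval of 0.03 to 0.67. Markers of endoderm were not at the same level in the undifferentiated lines. The summed level of 12 definitive endoderm markers was 80 to 81.3 in ST8, 76.7 to 85.9 in ST5 and 67.6 to 69.9 in ES cells. Of these, 5 were called higher in ST8 than in ES cells and 6 in ST5. Of 12 fibroblast markers, 0 were called between ST8 and ES cells and 1 was higher in ST5. Their part in the Zfp42 difference was not tested.

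At day 5, ST5 had more RNA of some factors than ES cells and ST8. Against ES cells, Klf4 was higher in ST5 by 1.67 ± 0.15 (SE, adjusted p = 1.27e-05), a 3.19-fold level. Nr0b1 was higher by 2.47 ± 0.46 (adjusted p = 0.00226) and Tfcp2l1 by 1.87 ± 0.35 (adjusted p = 0.00223). Klf2 was lower by 0.53 (SE 0.14, adjusted p = 0.0162), which was no longer called when ES day 5 replicate 3 (adjusted p = 0.0986) or ST5 day 5 replicate 1 (0.0791) was left out. These 3 rises and 1 fall among 8 factors stand against 11.6% of all genes called higher and 11.8% called lower. The remaining factors were not called, and Esrrb and Zfp42 differed by -0.07 (interval -0.30 to 0.16) and -0.03 (interval -0.59 to 0.54). Definitive endoderm markers were higher in ST5 than in ES cells in 2 of 12 cases and lower in 0. Their summed levels were 109.8 to 110.5 in ST5 and 111.1, 97.5 and 96.9 in ES replicates 1 to 3. Visceral endoderm markers were higher in ST5 than in ES cells in 5 of 8 cases, with summed levels of 53.2 to 54.8 in ST5 and 43.2 to 47.4 in ES cells. Fibroblast markers were lower in 5 of 12 cases (58.8 to 60.2 in ST5 and 60.4 to 64.8 in ES cells), and neural markers in 3 of 6 (35.9 to 36.5 in ST5 and 37.5 to 40.3 in ES cells). The part of cells with these markers in the differences of the factors was not tested.

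ST8 against ES cells at day 5 gave 0 calls among the 8 factors in limma, against 0.958% of all genes, and 2 factors, Klf4 and Tfcp2l1, had an unadjusted p under 0.05. Klf4 differed by 0.44 (interval 0.12 to 0.76) and Tfcp2l1 by 0.84 (interval 0.10 to 1.57). Without ES day 5 replicate 1, the highest ES array for both factors, both were called, at 0.58 (adjusted p = 0.0389) and 1.30 (0.0219). ST8 replicate 2, the highest ST8 array for both, was kept in that fit. Over 16 alternatives the difference ran from 0.26 to 0.58 for Klf4 and from 0.36 to 1.30 for Tfcp2l1.

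ST8 was lower than ST5 at day 5 in Klf4, with a difference of -1.24 (SE 0.15, adjusted p = 0.000279), and in Nr0b1, with -1.65 (SE 0.46, adjusted p = 0.027). These 2 calls stand against 6.3% of all genes called lower. Tfcp2l1 differed by -1.03 (interval -1.77 to -0.29, adjusted p = 0.0566), with every ST8 array below every ST5 array, and was called under 4 of 16 alternatives. Without ST8 day 5 replicate 2, both Tfcp2l1 and Nr0b1 were called, at -1.51 (adjusted p = 0.000771) and -2.40 (2.42e-05). That array was the highest of its group for both, so leaving it out narrows the spread and enlarges the difference by construction. The Nr0b1 call did not hold when ST8 day 5 replicate 1 (adjusted p = 0.142) or 3 (0.156), or any of ST5 day 5 replicates 1, 2 and 3 (0.0799, 0.0698 and 0.0645), was left out. In a fit of the 2 groups alone neither gene was called (adjusted p = 0.067 for Klf4 and 0.164 for Nr0b1). Visceral endoderm markers were lower in ST8 than in ST5 in 2 of 8 cases, with summed levels of 45.2 to 52.7 in ST8 and 53.2 to 54.8 in ST5. Definitive endoderm markers were lower in 1 of 12 cases and higher in 0. Their summed levels were 98, 111.2 and 97 in ST8 replicates 1 to 3 and 109.8 to 110.5 in ST5. The part of cells with these markers was not tested.

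The difference of the responses, each day 5 minus day 0, was tested directly. Klf4 fell less in ST5 than in ES cells, by 1.57 ± 0.21 (SE, adjusted p = 0.00141), and more in ST8 than in ST5, with a difference of -1.59 ± 0.21 (adjusted p = 0.0046). Zfp42 fell less in ST5 than in ES cells, by 1.35 ± 0.38 (adjusted p = 0.0473), a call lost under 10 of 22 alternatives with adjusted p up to 0.117. The 2 calls of ST5 against ES cells stand against 3.3% of all genes called in that direction, and the 1 call of ST8 against ST5 against 1.11%. For ST8 against ES cells limma called 0 of 8, against 0.838% of all genes, and 3 factors, Zfp42, Klf2 and Klf5, had an unadjusted p under 0.05. The Klf4 response of ST8 differed from that of ES cells by -0.02, with an interval of -0.47 to 0.43.

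Nr0b1 and Tfcp2l1 had response differences of 2.08 (interval 0.70 to 3.45, adjusted p = 0.0682) and 1.06 (interval 0.02 to 2.10, adjusted p = 0.198), ST5 minus ES cells. Both were called without ES day 5 replicate 1, at 2.57 (adjusted p = 0.00983) and 1.52 (0.0184). For ST8 minus ST5 the differences were -1.48 (adjusted p = 0.207) for Nr0b1 and -0.74 (adjusted p = 0.409) for Tfcp2l1. Without ST8 day 5 replicate 2 these too were called, at -2.23 (adjusted p = 0.00131) and -1.22 (0.0334). Each array left out was the highest of its group for both genes, which narrows the spread and enlarges the difference by construction.

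The scatter at day 5 followed individual arrays. ST8 replicate 2 and ES replicate 1 were the highest arrays of their groups for 5 of the 8 factors, Klf4, Klf5, Tfcp2l1, Nr0b1 and Tbx3, as they were for 23.4% of all genes. None of the 8 factors was lowest on both arrays, against 24.6% of all genes. Pou5f1, the core factor of pluripotency, was 10.48, 7.25 and 10.43 in ST8, 8.36, 8.40 and 8.29 in ST5, and 8.41, 9.64 and 9.61 in ES cells at day 5. Nanog, its partner in the core network, was 9.93, 6.85 and 9.84 in ST8, 5.96, 6.58 and 5.78 in ST5, and 8.18, 9.24 and 9.24 in ES cells. Both were thus low on the arrays on which Nr0b1 and Tfcp2l1 were high, and low on all ST5 arrays.

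Sox17, an endoderm factor, was 7.40, 9.30 and 7.23 in ST8, 8.99, 8.82 and 8.69 in ST5, and 9.35, 7.15 and 7.28 in ES cells at day 5, so it was high on the same arrays. Among the factors, Esrrb did not follow these arrays, with all 9 levels between 4.29 and 4.71. These levels lay below the array medians. Whether they lie above background was not tested, so scatter between arrays could be hidden there. Zfp42 and Klf2 were not high on both arrays either. On ST8 replicate 2 and ES replicate 1, Zfp42 deviated from its group mean by 0.20 and -0.13, and Klf2 by 0 and -0.12. Klf4 followed them only in part: ST8 replicate 2 at 6.36 and ES replicate 1 at 5.99 were highest in their groups but below the lowest ST5 array at 7.28. On the amplified ES arrays at day 5, replicate 1 was again highest for Klf5, Tfcp2l1, Nr0b1 and Tbx3. These 4 of 8 factors were highest on all 3 arrays, as were 15.8% of all genes, and the labels do not say whether the amplified and unamplified replicates share their RNA.

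**Figure D4:**
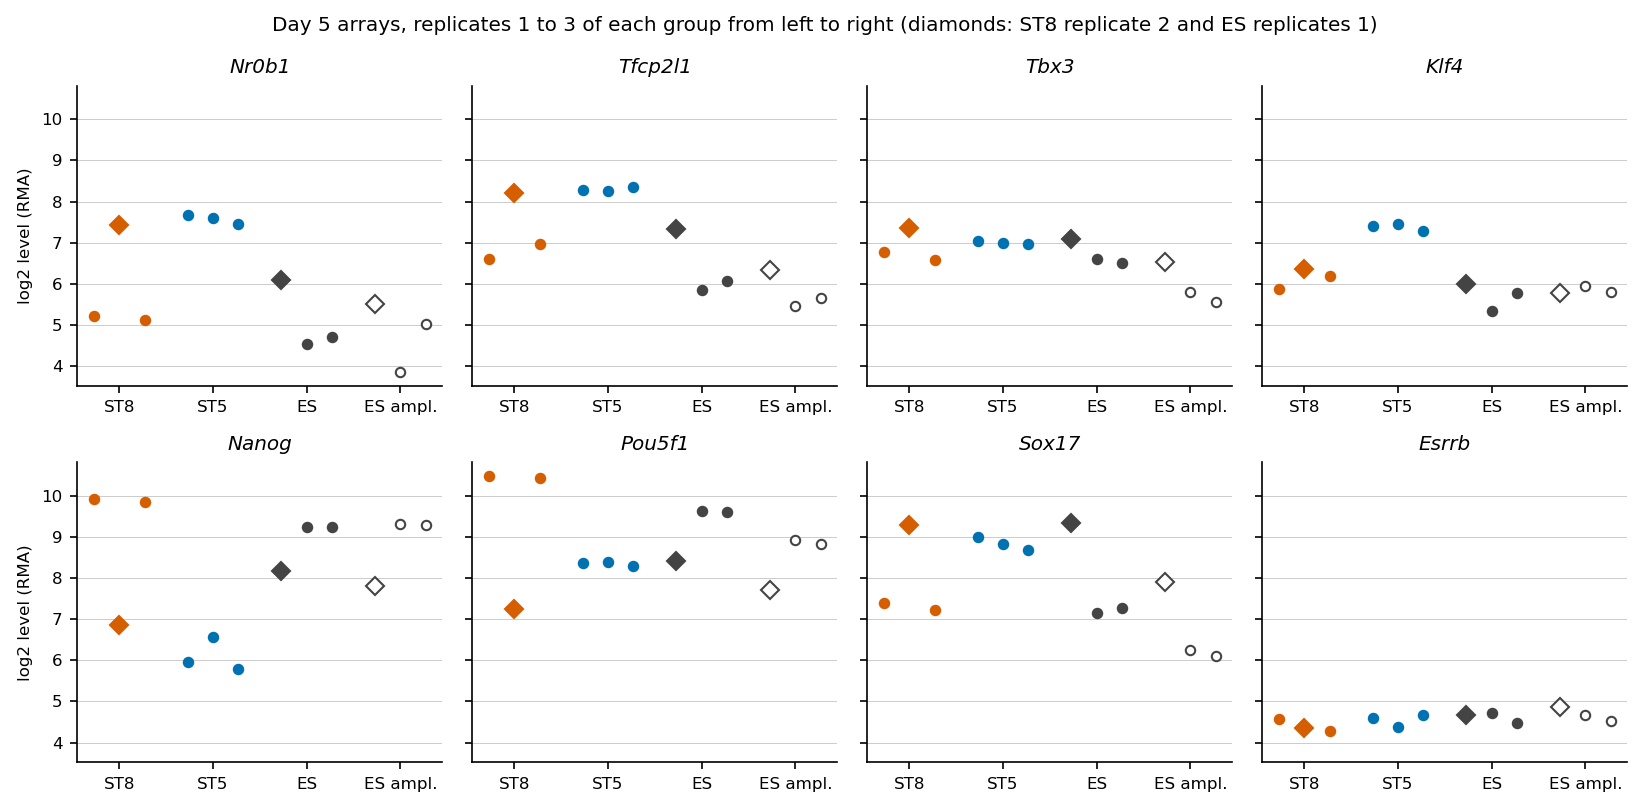
Log2 level (RMA) at day 5 of 5 naive factors and of Nanog, Pou5f1 and Sox17, by array, with replicates 1 to 3 from left to right in each group, diamonds for ST8 replicate 2 and ES replicate 1, and open symbols for amplified arrays, whose levels are not comparable with the rest. The diamonds are high for Nr0b1, Tfcp2l1, Tbx3 and Sox17 and low for Nanog and Pou5f1. On the unamplified arrays Esrrb stays between 4.29 and 4.71, below the array medians.

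For each factor, the genes most alike over the 18 unamplified arrays were sought among genes whose mean there was above the median of all genes. Provisional gene symbols were left out. Likeness was the root mean square (RMS) difference of log2 levels centred on each gene's own mean, and closest below means closest in that search. Esrrb was closest to Gdf3 (RMS 0.26), the TGF-beta family ligand, and Dppa2 (0.26), and Zfp42 to Ifitm3 (0.45), a membrane protein, and Ooep (0.50), a protein known from oocytes. Klf4 was closest to Fosb (0.33), an immediate early factor, and to Tfcp2l1 (0.39). Tfcp2l1 was in turn closest to Klf4 (0.39) and Pla2g1b (0.41), a secreted phospholipase, and Nr0b1 to Pla2g1b (0.41) and Tfcp2l1 (0.64). Klf2 was closest to Irak3 (0.20) and Dennd2c (0.24), Klf5 to Zfp57 (0.11), a factor of imprint maintenance, and Pcsk6 (0.13), and Tbx3 to the calpains Capn1 (0.13) and Capn5 (0.14). These values describe the 18 arrays, which share the split between the days, and are smaller for genes with a smaller range.

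With amplified labelling, the 8 factors were again all lower in ES cells at day 5 than at day 0, against 13.8% of all genes called lower. Their median was -1.93, against -0.02 over all genes. Zfp42 was 4.16, 3.61 and 3.87 at day 5, against 8.79, 8.81 and 8.63 at day 0, and fell by 4.86 (SE 0.23, adjusted p = 1.06e-08). Esrrb was 4.87, 4.67 and 4.53 at day 5, against 6.50, 6.88 and 6.92 at day 0, a difference of -2.08 (SE 0.13). Klf2 was 6.44, 6.51 and 6.52 at day 5, against 7.14, 6.99 and 7.21 at day 0, a difference of -0.62 (SE 0.11, adjusted p = 0.000918). For all 8 the days did not overlap, as 21.6% of all genes did not in that direction. Fibroblast markers had summed levels of 61.0 to 62.6 at day 5 and 74.3 to 76.2 at day 0, with 10 of 12 called lower.

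Tbx3 was the one factor called higher in foregut than in its comparison cells. In foregut endoderm it was 7.87, 7.84 and 7.93, against 6.75, 6.79 and 6.86 in ENDM1-negative cells. ES cells on the same labelling had 6.53, 5.80 and 5.55 at day 5 and 7.01, 6.81 and 6.61 at day 0. All foregut arrays lay above all arrays of the 3 remaining groups. Tbx3 was higher in foregut than in ENDM1-negative cells by 1.08 ± 0.19 (SE, adjusted p = 0.00374), a 2.12-fold level. It was higher than in ES cells at day 5 by 1.92 ± 0.19 (adjusted p = 2.02e-05) and than in ES cells at day 0 by 1.07 ± 0.19 (adjusted p = 0.000701).

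Between the embryo populations, 3 factors were lower in foregut and 1, Tbx3, was higher, against 4.43% of all genes called lower and 3.71% called higher. Zfp42 was 4.12, 4.10 and 3.62 in foregut, against 5.07, 5.81 and 4.71 in ENDM1-negative cells, and the difference was -1.25 (SE 0.23, adjusted p = 0.00556). Klf5 was 6.26, 6.46 and 6.51 in foregut, against 7.07, 7.05 and 7.07 in ENDM1-negative cells, and the difference was -0.66 (SE 0.15, adjusted p = 0.0152). Klf2 was 6.69, 6.26 and 6.65 in foregut, against 6.92, 7.09 and 6.97 in ENDM1-negative cells, and the difference was -0.46 (SE 0.11, adjusted p = 0.0227). The arrays of the populations did not overlap for these 3 genes. The Klf5 call did not hold without foregut replicate 1 (adjusted p = 0.0713), and the Klf2 call without foregut replicate 2 (0.0638) or ENDM1-negative replicate 2 (0.0823) or 3 (0.0552).

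Nr0b1 was 4.64, 4.58 and 4.38 in foregut, against 6.31, 6.37 and 5.01 in ENDM1-negative cells. It did not pass the test, at -1.37 (interval -2.21 to -0.52, adjusted p = 0.0503), and passed without ENDM1-negative replicate 3, the lowest of its group, at -1.81 (adjusted p = 0.0111). Esrrb, Klf4 and Tfcp2l1 overlapped between the populations, with differences of 0.02 (interval -0.25 to 0.30), -0.03 (interval -0.29 to 0.23) and 0.09 (interval -0.32 to 0.50).

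Marker lists of several cell types also differed between the embryo populations. Definitive endoderm markers were higher in foregut in 7 of 12 cases and lower in 2. Their summed levels were 80.6 to 83.4 in foregut and 72.9 to 75.4 in ENDM1-negative cells. Visceral endoderm markers were higher in foregut in 7 of 8 cases, with summed levels of 62.5 to 73.9 in foregut and 46.2 to 52.4 in ENDM1-negative cells. Endothelium markers were lower in 5 of 8 cases (39.5 to 40.7 in foregut and 48.3 to 52.0 in ENDM1-negative cells), and trophoblast markers in 5 of 7 (37.2 to 37.3 in foregut and 40.7 to 43.4 in ENDM1-negative cells). Germ cell markers were lower in 2 of 8 cases (53.3 to 54.4 in foregut and 55.4 to 55.8 in ENDM1-negative cells), and surface ectoderm markers in 4 of 7. Pou5f1 was 5.74, 5.28 and 5.93 in foregut, against 8.17, 7.19 and 8.35 in ENDM1-negative cells. Which cells carried these markers, and their part in the levels of Tbx3, Zfp42, Klf5 and Klf2, was not tested.

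Compared with ES cells at day 5, foregut had 3 factors higher, against 14.7% of all genes called higher: Tbx3, Esrrb by 0.51 ± 0.13 (SE, adjusted p = 0.0115) and Klf4 by 0.47 ± 0.12 (adjusted p = 0.0123). The Esrrb levels were 5.26, 5.16 and 5.17 in foregut, against 4.87, 4.67 and 4.53 in ES cells at day 5, and those of Klf4 were 6.40, 6.17 and 6.39, against 5.78, 5.95 and 5.80. Foregut lay above ES cells at day 5 without overlap for both genes, by less than the fall of either gene in ES cells. The Esrrb call did not hold when ES day 5 replicate 3 was left out (adjusted p = 0.0522), nor the Klf4 call when foregut replicate 1 was (0.0506). Klf5 differed by -0.43 (interval -0.75 to -0.11, adjusted p = 0.0502), with every foregut array below every ES array, and was called lower under 5 of 15 alternatives. Zfp42 differed by 0.07 (interval -0.43 to 0.57) and Tfcp2l1 by 0.02 (interval -0.39 to 0.43). Visceral endoderm markers were higher in foregut than in ES cells at day 5 in 8 of 8 cases (summed levels of 62.5 to 73.9 in foregut and 47.7 to 51.9 in ES cells). Definitive endoderm markers were lower in foregut in 6 of 12 cases and higher in 1. Their summed levels were 80.6 to 83.4 in foregut and 90.1 to 100 in ES cells. Endothelium markers were higher in 3 of 8 cases and surface ectoderm markers in 3 of 7. The part of cells with these markers in these differences was not tested. Strain and RNA kit differ between embryo and culture, so they cannot be told apart from the source of the cells.

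ENDM1-negative cells had 5 factors higher than ES cells at day 5, against 16.5% of all genes called higher: Zfp42 by 1.32 ± 0.23 (SE), Tbx3 by 0.84 ± 0.19, Klf4 by 0.51 ± 0.12, Klf2 by 0.50 ± 0.11 and Esrrb by 0.48 ± 0.13. That of Esrrb was no longer called when ES day 5 replicate 3 (adjusted p = 0.0578) or ENDM1-negative replicate 1 (0.0596) was left out. Nr0b1 differed by 1.10 (adjusted p = 0.0551) and was called without ES day 5 replicate 1, the highest of its group, at 1.46 (adjusted p = 0.0137). Endothelium markers were higher in ENDM1-negative cells than in ES cells at day 5 in 7 of 8 cases, with summed levels of 48.3 to 52.0 in ENDM1-negative cells and 37.2 to 37.7 in ES cells. Trophoblast markers were higher in 6 of 7 cases (40.7 to 43.4 in ENDM1-negative cells and 35.7 to 36.5 in ES cells), and surface ectoderm markers in 6 of 7 (43.8 to 45.6 in ENDM1-negative cells and 36.4 to 37.4 in ES cells). Germ cell markers were higher in 4 of 8 cases and lower in 0 (55.4 to 55.8 in ENDM1-negative cells and 50.5 to 52.2 in ES cells). Definitive endoderm markers were lower in 9 of 12 cases and higher in 0 (72.9 to 75.4 in ENDM1-negative cells and 90.1 to 100 in ES cells). The part of cells with these markers in the levels of these factors, Klf2 among them, was not tested. Against ES cells at day 0, foregut had 7 factors lower and Tbx3 higher, where 14.2% of all genes were called lower and 18.2% higher. Zfp42 differed by -4.79 (SE 0.23) and Nr0b1 by -3.93 (SE 0.39). ENDM1-negative cells had 6 lower than ES cells at day 0, where 11.1% of all genes were called lower. Klf2 and Tbx3 differed there by -0.12 (interval -0.36 to 0.12) and -0.01 (interval -0.42 to 0.40).

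**Figure D5:**
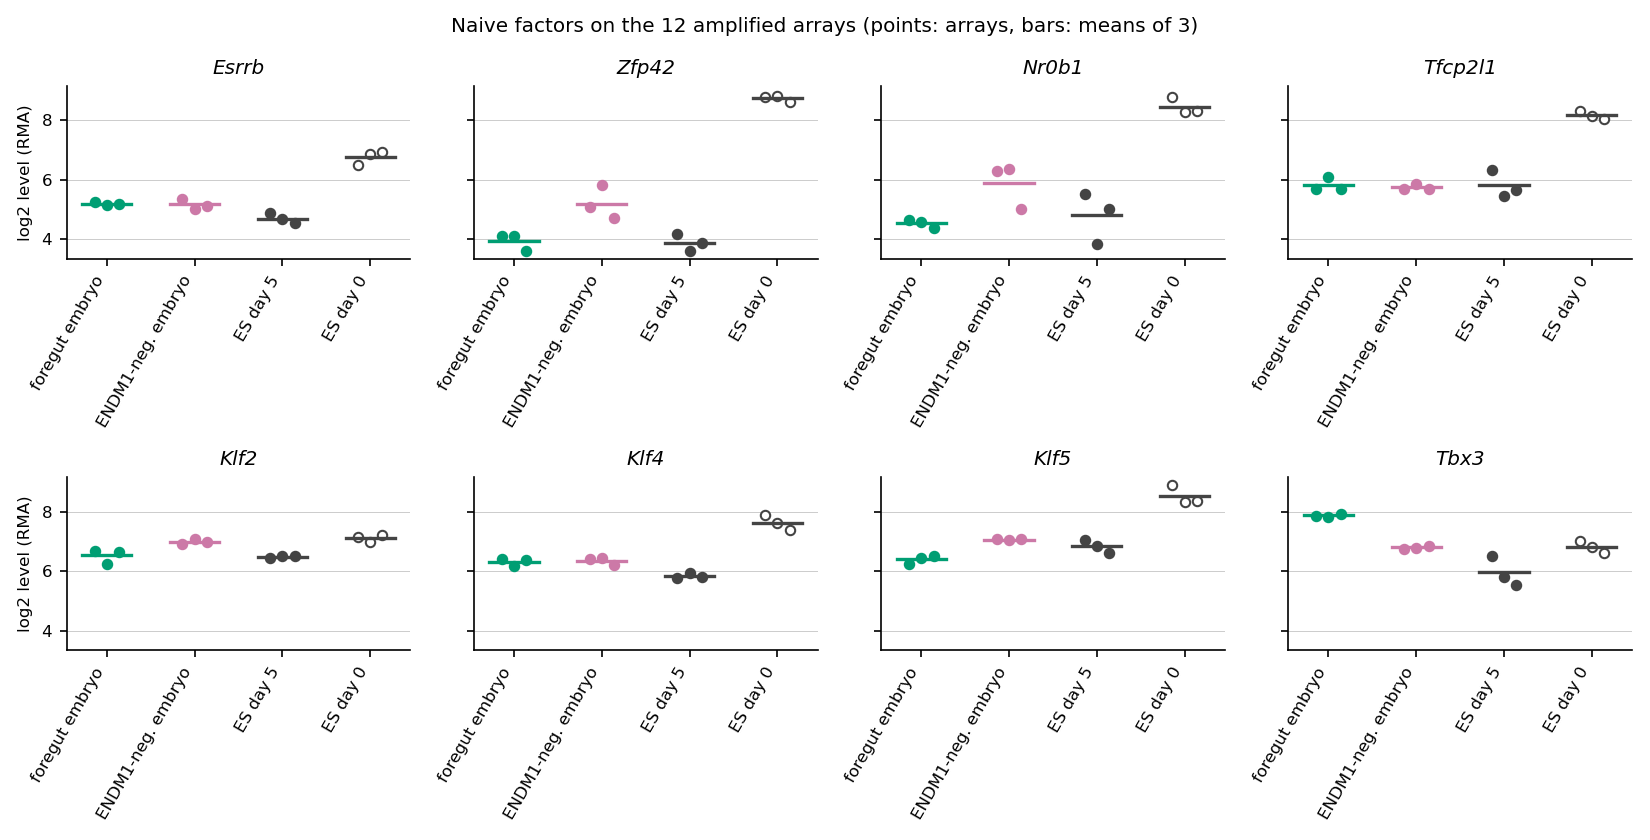
Log2 level (RMA) of each factor on the 12 amplified arrays, with a point per array and a bar at the mean of 3, for foregut and ENDM1-negative cells of E8.25 embryos and for ES cells at day 5 and day 0. Tbx3 is highest in foregut (7.84 to 7.93), while the other 7 factors are highest on average in ES cells at day 0.

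The order of the groups differed among factors. On unamplified arrays, Esrrb and Klf2 had overlapping levels among the 3 lines at day 0 and overlapping neighbours at day 5. For Klf4 the order at day 5 was ST5 (mean 7.38), ST8 (6.14) and ES cells (5.70), with ST5 apart and the other two overlapping. For Nr0b1 it was ST5 (7.58), ST8 (5.92) and ES cells (5.11), again with ST5 apart. For Tfcp2l1 the day 0 order was ST5 (10.27), ST8 (9.98) and ES cells (9.46), each apart from the next, and the day 5 order was the same (8.29, 7.26 and 6.43), with ST8 and ES cells overlapping. Zfp42 at day 0 had ST8 (7.92) and ST5 (7.88) overlapping and ES cells (9.26) apart above them.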

How the data were processed

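RNA was measured on 30 Affymetrix Mouse Gene 1.0 ST arrays in 10 groups of 3, grouped by the labels. The deposited values are on the log2 scale and were made with RMA, according to the submitters' processing notes. The RMA version, and whether both labellings were run together, are not given in the sources used here. Of 35556 probe sets, the 21789 that name a single gene in the platform annotation were used, and 1621 that name several and 12146 that are not listed were not. For 999 genes with more than 1 probe set, none of them among the 8 factors, the brightest on average was taken. In all, 19938 genes were tested.

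Group means were fitted with limma 3.58.1 in R 4.3.3 (files were read with the data.table package, version 1.17.8), once for the 18 unamplified arrays (12 residual degrees of freedom) and once for the 12 amplified arrays (8 residual degrees of freedom). Moderated two-sided tests were adjusted by Benjamini-Hochberg over all genes with a threshold of 0.05, and intervals are 95%. The code was tested on simulated data. Replicates are biological per the labels. Named genes are the 8 factors, a few core genes beside them, up to 2 called rises and 2 called falls per list, taken by size in ES cells, and the 2 most alike genes of each factor. Lox was named after its values were seen. The factors and lists were chosen with earlier results of these data known. List counts are over the genes measured here. Alternatives changed the arrays in the fit, the normalization, the filter, the probe set rule, the spread model and the least difference called, added the replicate as a block, or left out arrays.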

Additional observations from a re-analysis of the deposited data

Results flagged for a closer look

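Differences between lines in the response to differentiation met the test for a closer look in 3 cases. The response of Klf4, day 5 minus day 0, was 1.57 higher in ST5 than in ES cells on the log2 scale, and that of ST8 minus that of ST5 was -1.59, so the fall in ST5 was the smaller in both. The response of Zfp42 was 1.35 higher in ST5 than in ES cells. All 3 come from the interaction term of the limma fit. At day 5 the Zfp42 levels of the lines overlapped, and at day 0 those of ST5 lay below those of ES cells, while for Klf4 ST5 overlapped with ES cells at day 0, where every ST8 array lay above every ST5 array, and ST5 lay above both at day 5. Groups of 3 arrays were not tested for single outlying arrays.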

How the results depend on the processing

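With a log2 difference of at least 1 required, 7 factors were called lower at day 5 in ST8, 7 in ST5, 7 in ES cells and 6 in amplified ES cells. Under the other alternatives all 8 were called in ST5 and ES cells, 7 or 8 in ST8, with Tbx3 the one lost, and all 8 in amplified ES cells, except that leaving out dim genes removed Zfp42 and Esrrb from that test and kept the calls of the 6 others. No factor's called difference changed sign under any alternative. Fitting only the groups compared, so that the spread is not shared, moved the number of factors called to 4 for ST8 against ES cells at day 0, 2 for ST5 against ES cells at day 0 and 0 for ST8 against ST5 at day 5. An intensity trend with robust spread left 1 factor in the response of ST5 minus ES cells. Asking for a log2 difference of at least 1 left 2 factors for foregut against ENDM1-negative cells, 1 for foregut against ES cells at day 5 and 1 for ENDM1-negative cells against ES cells at day 5.

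Leaving out 1 array at a time gave 0 to 1 factors for ST8 and for ST5 against ES cells at day 0, 0 to 2 for ST8 against ES cells at day 5, 1 to 3 for ST8 against ST5 at day 5, 1 to 5 for the response of ST5 minus ES cells and 1 to 3 for that of ST8 minus ST5. The higher ends of the response counts, 5 and 3, came without ES day 5 replicate 1 and without ST8 day 5 replicate 2. Leaving out both of these arrays, chosen after seeing the data, gave 2 factors for ST8 against ES cells at day 5, 4 for ST8 against ST5 at day 5, 6 for the response of ST5 minus ES cells and 3 for ST8 minus ST5. That choice lowers the spread by its construction, so these counts are too high to be read as tests. The same holds for the calls gained when either of these arrays was left out alone.

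With the replicate number as a block, 5 factors were called for foregut against ENDM1-negative cells and 6 for ENDM1-negative cells against ES cells at day 5, Nr0b1 being added in both (adjusted p = 0.0402 and 0.0405 in limma), and the counts of the other comparisons were the same as without it. Correlations of deviations between same-numbered arrays ran from -0.65 to 0.50, and no comparison had all pairs above 0.1. With so few arrays per group, these correlations cannot show whether same-numbered arrays were paired. Pairing between amplified and unamplified arrays was not tested. The deposited values carry no detection call, so whether the lowest levels, such as those of Esrrb at day 5, lie above background was not tested.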
